A study of Mus musculus with 2 samples.

Results

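Heat shock factor 1 and 9 chaperone genes were examined in mouse embryonic stem (ES) cells, as the rows of the deposited expression files whose gene name was Hsf1, Hspa1a, Hspa1b, Hspa8, Hsp90aa1, Hsp90ab1, Hsph1, Hspb1, Hspd1 or Hspe1. All 10 were found among 26127 rows. The rule that picks the rows uses gene names and no measured value. The genes were read in 1 RNA-seq library per cell line, so no value has a replicate and no p-value is given. WT cells were ES cells of strain 129S1/SvImJ with 2 normal copies of each H3.3 gene. G34R cells were targeted H3.3 G34R ES cells of the same strain, in which exon 2 of 1 H3f3a copy had been replaced and, after Cre excision, the mutant was expressed as a single copy from the endogenous H3f3a promoter (H3f3a +/G34R), beside 1 normal H3f3a copy and 2 of H3f3b. Both lines were low-passage cultures in serum with leukemia inhibitory factor, and the unmutated histone genes and the culture medium were common to both. With 1 library of each line, the mutation, the clone and the culture cannot be told apart.

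Molecular chaperones bind unfolded stretches of protein and use rounds of ATP binding to release them for folding. HSF1 is the transcription factor of the heat shock response. It is held inactive by chaperones and, once unfolded protein draws these away, binds heat shock elements, which are inverted repeats of the bases GAA, and raises transcription of chaperone genes. Hspa1a and Hspa1b are the classical inducible targets and are low in unstressed cells, while Hspa8 and Hsp90ab1 are the constitutive forms. ES cells are known for high chaperone levels. The comparison therefore asks whether the genes that report protein-folding stress had higher RNA levels in the G34R line, in which most genes of the middle and distal parts of chromosome 8 had higher values than in WT cells.

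The stretches of promoter that follow hold exact heat shock element units found in windows of the members. They are shown because HSF1 binds elements of this kind. RefSeq windows (GRCm38.p6) of 250 bases before to 50 after the annotated start matched 6 of the 10 members by symbol. Hsf1, Hspa8, Hsp90aa1 and Hsp90ab1 had no entry. Both strands are covered by the palindromic units GAANNTTC and TTCNNGAA, which may overlap each other, and the letters of either unit are in capitals. All coordinates are those of an exact match to mm9, and the sequence reads 5′ to 3′ towards the gene.
Hspa1a (chr17:35109172-35109231, minus strand) and Hspa1b (chr17:35096254-35096313, minus strand), the same 60 bases in both: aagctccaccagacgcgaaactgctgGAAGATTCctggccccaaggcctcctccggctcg
Hspb1 (chr5:136363646-136363725, plus strand): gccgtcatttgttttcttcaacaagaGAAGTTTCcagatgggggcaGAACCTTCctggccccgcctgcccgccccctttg
Hsph1 (chr5:150438926-150438955, minus strand): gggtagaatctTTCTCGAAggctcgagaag
Hspe1 (chr1:55144897-55144926, plus strand): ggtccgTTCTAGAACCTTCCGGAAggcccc
Hspd1 (the same bases on the minus strand): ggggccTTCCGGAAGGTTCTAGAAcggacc

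Hspd1 and Hspe1, which encode the mitochondrial chaperonin and its lid, are transcribed head to head, and 1 run of 3 overlapping units lies between their starts, 72 to 89 bases before the start of Hspe1 and 127 to 144 bases before a start of Hspd1. This stretch is also annotated as exon of an Hspd1 transcript, and 26 of the 30 bases shown for Hsph1 as exon of Hsph1, upstream of the RefSeq start. The single unit of Hspa1a and of Hspa1b lies 97 to 104 bases before the start, and the pair of units in Hspb1 lies 90 to 117 bases before it. The other RefSeq start of Hspd1 had no unit in its 250 bases. Neither had the 2 windows of the heat-inducible Dnajb1, which is no member and was scanned as well. Only exact units were searched, so elements that depart from these letters or lie farther away were missed. Over the 250 bases before the start of all 32851 windows in the table, 12.8% held a unit of either form, 0.466% held at least 2 overlapping units (GAANNTTCNNGAA or TTCNNGAANNTTC), and 0.0213% (7 windows, those of Hspe1 and Hspd1 among them) held 3 overlapping units. A match of letters is a description of the sequence and not evidence of binding.

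In the expression files, 10728 genes had at least 1 RPKM (reads scaled for transcript length and library size) in 1 library, and these are called tested below. Depth estimated from the RPKM steps of short genes was 88.4 M reads for WT cells and 72.5 M for G34R cells. The median log2 (G34R/WT RPKM) of tested genes was -0.05, with a middle range from -0.35 to 0.25. The targeted gene H3f3a had 8.17 RPKM in the WT library and 4.89 RPKM in the G34R library, and these totals do not separate its alleles. ES cell markers were high in both lines, with Pou5f1 at 194 and 189 RPKM in WT and G34R cells. Of the 10, 2 were lower past 2-fold in G34R cells, Zfp42 (180.3 and 16.4 RPKM) and Nanog (127 and 52.2 RPKM), and 2 were higher past 1.5-fold, Klf4 (25.1 and 43.7 RPKM) and Utf1 (61.9 and 108.6 RPKM). Markers of fibroblast feeder cells summed to 1.95 RPKM in WT cells and to 1 RPKM in G34R cells over 9 genes, with Fap, Postn, Dcn and Lum at 0 in both libraries. Markers of primitive endoderm summed to 2.22 RPKM in the WT library and 4.62 RPKM in the G34R library over 9 genes, with Afp at 0 in both. Gata6 (0.30 and 1.09 RPKM) and Gata4 (0.50 and 1.18 RPKM) reached 1 RPKM, only in the G34R library where they were higher. The part of these marker differences in the chaperone values was not tested.

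None of the 10 members differed between the lines by more than 2-fold, and 1 of them, Hsf1, differed by more than 1.5-fold. With 1 RPKM added to each value Hsf1 was inside this limit too (log2 ratio 0.58). Past 2-fold were 4.09% of tested genes in the direction of higher values in G34R cells and 6.42% in the direction of lower values. Past 1.5-fold these shares were 11.3% and 14.1%. Of the members, 9 passed the limit of 1 RPKM and Hspa1a did not. In G34R cells 2 of the 9 (Hsf1 and Hsph1) were higher and 7 were lower than in WT cells, and their median log2 ratio was -0.18. Of all tested genes, 54.8% were lower. The median was -0.10 over all 10 members with no limit on RPKM, and -0.0205 over the 7 left without Hspd1 and Hspe1. The lower values of Hspa1b and Hsp90ab1 lay so near 0 that centring the ratios on the median of tested genes turned their sign. The 10 genes summed to 1910.4 RPKM in WT cells (1.22% of all RPKM) and 1729.6 RPKM in G34R cells (1.14%).

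**Figure D1:**
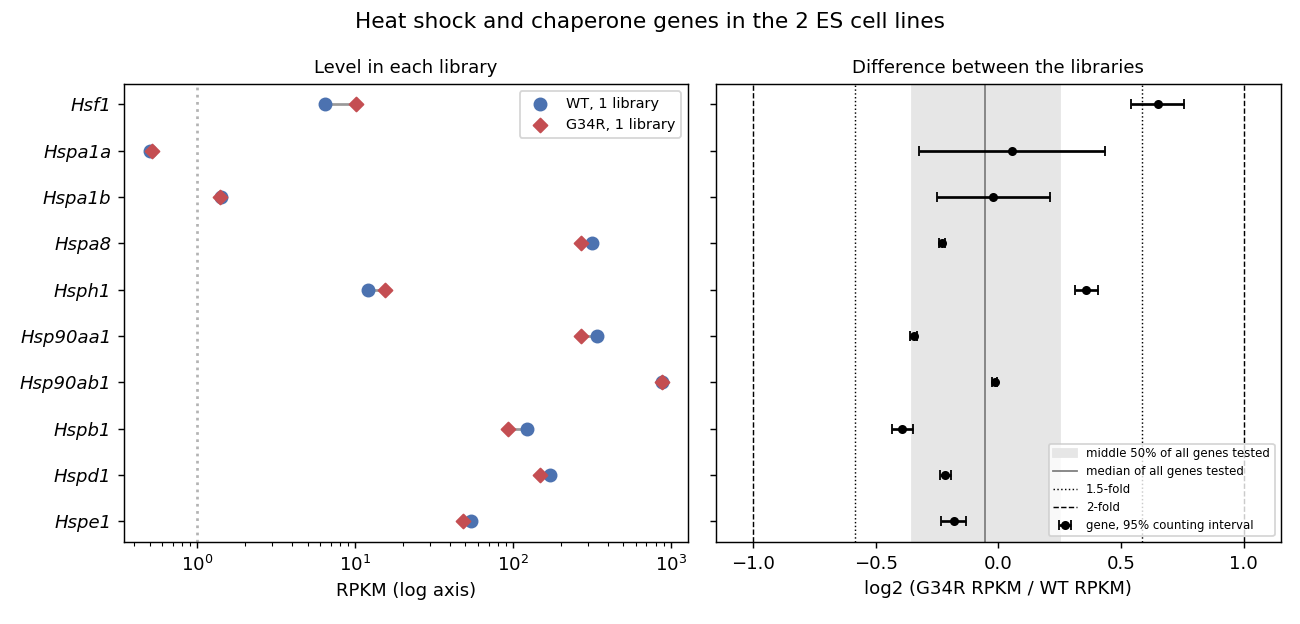
RPKM of the 10 members in the WT (circles) and G34R (diamonds) library on a log axis, and their log2 (G34R/WT RPKM) with 95% counting intervals, which cover counting error only. The grey band holds the middle 50% of all tested genes, and Hsf1 is the only member beyond a dotted 1.5-fold line.

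Hsf1 itself had the largest difference among the members. It encodes the factor that switches the heat shock response on and spans chr15:76307865-76331402 on the plus strand of mm9. It had 6.44 RPKM in the WT library and 10.1 RPKM in the G34R library, a 1.57-fold higher value in the G34R line and a log2 ratio of 0.65. About 1240 and 1596 reads lay behind these values, for a 95% counting interval of 0.54 to 0.76. Among all tested genes, 21.7% were at least as far from 0 in either direction. The 10 tested genes on each side of Hsf1 had a median log2 ratio of 0.04, ranging from -0.90 to 1.21. The longest coding transcript of Hsf1 has 57.8% G and C. With tested genes divided into 5 equal groups by G and C, the richest group (56.3 to 72.8%) had a median log2 ratio of 0.15 with 20.1% of genes higher past 1.5-fold, and the poorest group had a median of -0.22 with 3.77% higher. The part of base composition in the value of Hsf1 was not tested.

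The inducible Hsp70 genes were low and nearly the same in both lines. Hspa1a (chr17:35106144-35109069, minus strand) had 0.50 RPKM in the WT library and 0.52 RPKM in the G34R library. Hspa1b (chr17:35093381-35096183, minus strand) had 1.42 RPKM in the WT library and 1.40 RPKM in the G34R library. Added together they came to 1.92 RPKM in each library. At about 129 and 110 reads for Hspa1a, the 95% counting interval of its log2 ratio ran from -0.32 to 0.43, and for Hspa1b, at 352 and 285 reads, it ran from -0.25 to 0.21. These intervals cover counting error at this depth only, and leave out the placement of shared reads and differences between cultures.

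The genes are near copies, so the split between them is less certain than their sum. Over 1926 aligned coding bases they differ at 8, beside a gap of 3 bases in Hspa1a. The 60 bases of coding sequence that hold the most substitutions before the gap, 1357 to 1416 counted from the start codon, are shown to make visible how little a 50-base read has to tell them apart, with the differing bases in capitals (GENCODE M1 transcripts).
Hspa1a: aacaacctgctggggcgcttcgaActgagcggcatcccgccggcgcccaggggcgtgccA
Hspa1b: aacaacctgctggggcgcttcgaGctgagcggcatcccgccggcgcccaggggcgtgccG

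Of the 50-base windows of the Hspa1a transcript, 59.4% occur exactly in Hspa1b, and of those of Hspa1b 62.1% occur exactly in Hspa1a. The authors kept primary alignments, which place such a read at 1 of its positions. Hspa1l, the testis-type gene beside them, was at 0.10 RPKM in the WT library and 0.17 RPKM in the G34R library.

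Hspa8 encodes the constitutive Hsp70 of the cytosol, and was far above the inducible pair. It spans chr9:40609067-40613283 on the plus strand. Its level was 315 RPKM in the WT library and 269 RPKM in the G34R library, which is 164 times and 140.1 times the sum of Hspa1a and Hspa1b. The log2 ratio of Hspa8 was -0.23, with a 95% counting interval of -0.24 to -0.22. Hsph1, an Hsp110 protein that exchanges the nucleotide of Hsp70 and is itself inducible by heat, had the opposite sign. It had 12.0 RPKM in the WT library and 15.4 RPKM in the G34R library (chr5:150416862-150438951, minus strand). That is a log2 ratio of 0.36, with a counting interval of 0.31 to 0.40, and 44.0% of tested genes were at least as far from 0. Its transcript has 47.4% G and C, in the second poorest group, where the median ratio was -0.12.

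Of the cytosolic Hsp90 genes, the heat-inducible alpha form was lower in G34R cells and the constitutive beta form was level. Hsp90ab1 (chr17:45704724-45710220, minus strand) was the highest member, with 885 RPKM in the WT library and 875 RPKM in the G34R library. It ranked 5 among all genes in the WT library and 4 in the G34R library, with a log2 ratio of -0.02. Hsp90aa1 (chr12:111928815-111940938, minus strand) had 342 RPKM in the WT library and 269 RPKM in the G34R library. The log2 ratio of Hsp90aa1 was -0.35, and 45.7% of tested genes were at least as far from 0. Hsp90aa1 made up 27.9% of the RPKM of the pair in WT cells and 23.5% in G34R cells. The transcript of Hsp90aa1, with 43.7% G and C, belongs to the poorest group, where the median ratio was -0.22. That of Hsp90ab1, with 51.03%, belongs to the middle group, where the median ratio was -0.05. The part of base composition in the difference between these forms was not tested.

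Hspb1 encodes the small heat shock protein Hsp27, which holds unfolded proteins without using ATP. It had 122 RPKM in the WT library and 93.3 RPKM in the G34R library (chr5:136363789-136365433, plus strand). Its log2 ratio of -0.39 was the lowest of the members, with a counting interval of -0.43 to -0.35, and 40.4% of tested genes were at least as far from 0. Its transcript, with 61.7% G and C, belongs to the richest group, where the median ratio was above 0.

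The mitochondrial chaperonin pair was in nearly the same proportion in both libraries. Hspd1 (chr1:55134679-55145087, minus strand) had 171 RPKM in the WT library and 148 RPKM in the G34R library, a log2 ratio of -0.22. Hspe1 (chr1:55144976-55148151, plus strand) had 54.4 RPKM in the WT library and 47.9 RPKM in the G34R library, a log2 ratio of -0.18. The RPKM of Hspd1 was 3.15 times that of Hspe1 in WT cells and 3.08 times in G34R cells. The transcript of Hspd1, with 46.8% G and C, belongs to the second poorest group, where the median ratio was -0.12. That of Hspe1, with 51.7%, belongs to the middle group, where it was -0.05. The annotated spans of the genes overlap at their starts, and counting was by strand.

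**Figure D2:**
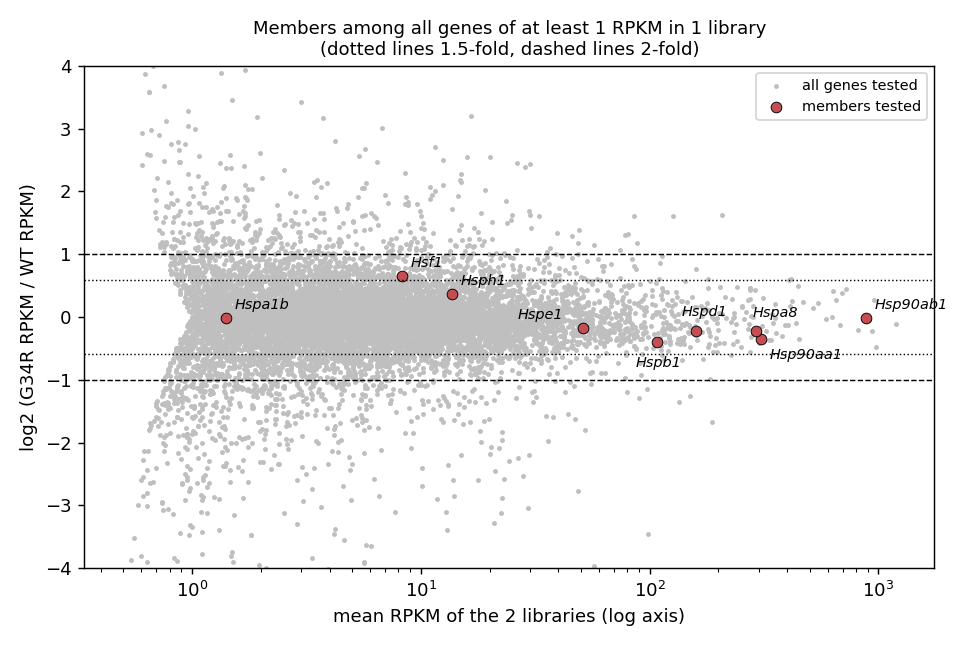
Mean RPKM of both libraries (log axis) against log2 (G34R/WT RPKM) for tested genes (grey) and the 9 tested members (red). A further 92 tested genes lie beyond the plotted limit of 4 on either side, and the members lie within the cloud, 8 of the 9 inside the dotted 1.5-fold lines.

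Chaperone genes have many processed copies in the mouse genome, and reads from such copies cannot always be told from reads of the gene. Exact copies of 50-base windows outside the gene were searched in mm9. Hsf1 and Hsph1 had none, and 8.30% of the windows of Hsp90ab1 did. The share was 46.5% for Hspe1, 58.5% for Hspd1, 61% for Hspa1a, 62.3% for Hspa1b, 63% for Hspb1, 73.1% for Hsp90aa1 and 75.7% for Hspa8. Some copies lie inside the span of another gene on the counted strand. Whether they overlap exons of that gene was not checked, so its RPKM is no measure of reads placed at the copy. Ssh2, whose span holds a copy of 65.3% of the windows of Hsp90aa1, had 2.25 RPKM in the WT library and 1.19 RPKM in the G34R library. Commd10, whose span holds a copy of 38.1% of the windows of Hspe1, had 7.56 and 5.78 RPKM. Smaller shared parts lie in Ryr3 (1.497% of the windows of Hsp90ab1, 0.28 and 0.02 RPKM), and in Cyp2j13 (0.966% of those of Hspe1, 0.18 and 0.05 RPKM) and Ptpn12 (0.414%, 5.88 and 5.82 RPKM). RPKM does not show how many reads were placed at copies, so the levels of these 7 genes with large shared parts are uncertain, and the part of read placement in their ratios was not tested.

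**Figure D3:**
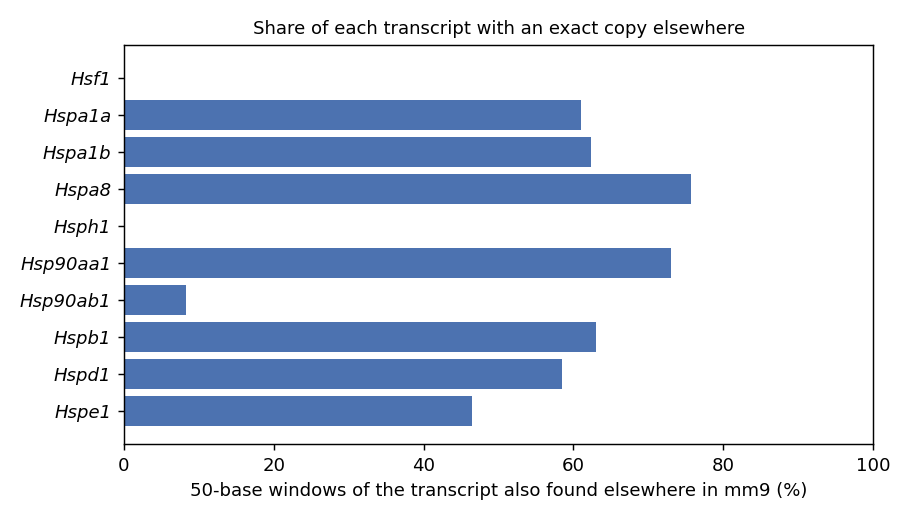
Percent of the 50-base windows of each member's longest coding transcript that occur exactly elsewhere in mm9, on either strand. Hsf1 and Hsph1 have no such window, Hsp90ab1 has 8.30%, and the other 7 have between 46.5% and 75.7%.

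Beyond the members, 21 genes known as heat-inducible HSF1 targets were taken as a list, which includes 9 of the members, the constitutive forms Hspa8 and Hsp90ab1 among them. Of its 18 tested genes, 5 were higher and 13 (Hspa8 and Hsp90ab1 included) lower in G34R cells, and the median log2 ratio was -0.09. None was higher past 1.5-fold. Of all tested genes, 54.8% were lower, and 11.3% were higher past 1.5-fold. Leaving out the members, 10 were tested, 4 were higher and 6 lower, with a median of -0.03. The highest ratio belonged to Dnajb1, the main heat-inducible Hsp40 partner of Hsp70, at 11.7 RPKM in the WT library and 15.2 RPKM in the G34R library, a log2 ratio of 0.38. The lowest belonged to Bag3, which links Hsp70 to autophagy and is a strong HSF1 target. It was 7.83 RPKM in the WT library and 3.14 RPKM in the G34R library, a log2 ratio of -1.32. Bag3 was the only gene of this list lower past 2-fold, beside 6.42% of all tested genes.

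The genes that form and feed the Hsp70 cycle differed in both directions. For comparison, 54.8% of all tested genes were lower in G34R cells. Of the 11 tested genes of the Hsp70 family, 4 were higher and 7 lower. Their median was -0.15, and -0.02 with no limit on RPKM. Hspa9, the mitochondrial Hsp70, was the second most abundant after Hspa8, at 135 RPKM in the WT library and 109.5 RPKM in the G34R library. Hspa12a passed 2-fold (0.46 and 1 RPKM, log2 ratio 1.12) and reached the limit of 1 RPKM only in the library where it was higher. With 0.1 or 1 RPKM added to each value it was inside 2-fold. Hspa13 was lowest (1.86 and 1.42 RPKM). Of 18 tested Hsp40 proteins, which deliver clients to Hsp70, 8 were higher and 10 lower, with a median of -0.16, which was 0 with a limit of 0.25 RPKM or none. Dnaja2 (37.0 and 46.2 RPKM) and Dnajc8 (25.6 and 26.7 RPKM) were the most abundant, and Dnajb6, a suppressor of aggregation, was the lowest, at exactly 0.5 times its WT level (7.40 and 3.70 RPKM).

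Among 12 tested nucleotide exchange factors 7 were higher, with a median of 0.13. All tested genes had a median of -0.05, and 54.8% of them were lower. Hspa4 had 94.0 RPKM in the WT library and 79.8 RPKM in the G34R library, and Bag1 had 30.6 and 36.1 RPKM. Bag2 was the highest in ratio, at 1.37 RPKM in the WT library and 2.92 RPKM in the G34R library, a log2 ratio of 1.09. With 1 RPKM added to each value Bag2 was inside 2-fold. Bag2 and Bag3, of the same protein family, thus stood at opposite ends of this list. Only 3 of 9 small heat shock proteins were tested. Hspb8, the partner of Bag3 in the autophagy of misfolded proteins, was higher in G34R cells past 2-fold, at 4.52 RPKM in the WT library and 11.7 RPKM in the G34R library, a log2 ratio of 1.37, while Hspb2 had 1.19 and 0.87 RPKM.

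The Hsp90 machinery was close to level. All 4 Hsp90 family genes had a log2 ratio under 0, between -0.35 and -0.02. Of 16 co-chaperones 8 were higher and 8 lower, with a median of -0.02. Stip1, which passes clients from Hsp70 to Hsp90, had 144 RPKM in the WT library and 128 RPKM in the G34R library, and the immunophilin Fkbp4 had 123 and 127 RPKM. Cdc37l1, a relative of the kinase co-chaperone Cdc37, was the lowest, at 8.51 RPKM in the WT library and 4.27 RPKM in the G34R library. Of the 13 tested subunits of the cytosolic chaperonin TRiC and of prefoldin, which fold and deliver actin and tubulin, 11 were lower and 2 higher, with a median of -0.19 and none past 1.5-fold. Cct2 had 204 RPKM in the WT library and 211 RPKM in the G34R library, Cct6a had 217 and 172 RPKM, Cct3 was the lowest in ratio (86.1 and 64.9 RPKM) and Pfdn2 the highest (6.69 and 7.92 RPKM). Across all tested genes, 54.8% had a ratio under 0, and past 1.5-fold 11.3% were higher and 14.1% lower.

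Chaperones of the other compartments differed in both directions. Of 22 tested genes of the endoplasmic reticulum (ER) chaperones and unfolded protein response, 1 was higher and 5 lower past 1.5-fold, beside 11.3% and 14.1% of all tested genes, with a median of -0.15. Xbp1, a transcription factor of that response, had 17.7 RPKM in the WT library and 7.37 RPKM in the G34R library, a log2 ratio of -1.27. It was the only one of the 22 lower past 2-fold, beside 6.42% of all tested genes. Pdia3, a disulfide isomerase for glycoproteins, was the highest in ratio, at 24.3 RPKM in the WT library and 47.1 RPKM in the G34R library (log2 ratio 0.95). Canx, the most abundant, had 98.9 and 72.1 RPKM. Of 13 mitochondrial chaperones and proteases, 5 were higher and 8 lower, beside 54.8% of all tested genes lower. Their median was -0.16, and they ranged from Yme1l1 (19.4 and 12.7 RPKM) to Htra2 (3.73 and 4.33 RPKM).

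**Figure D4:**
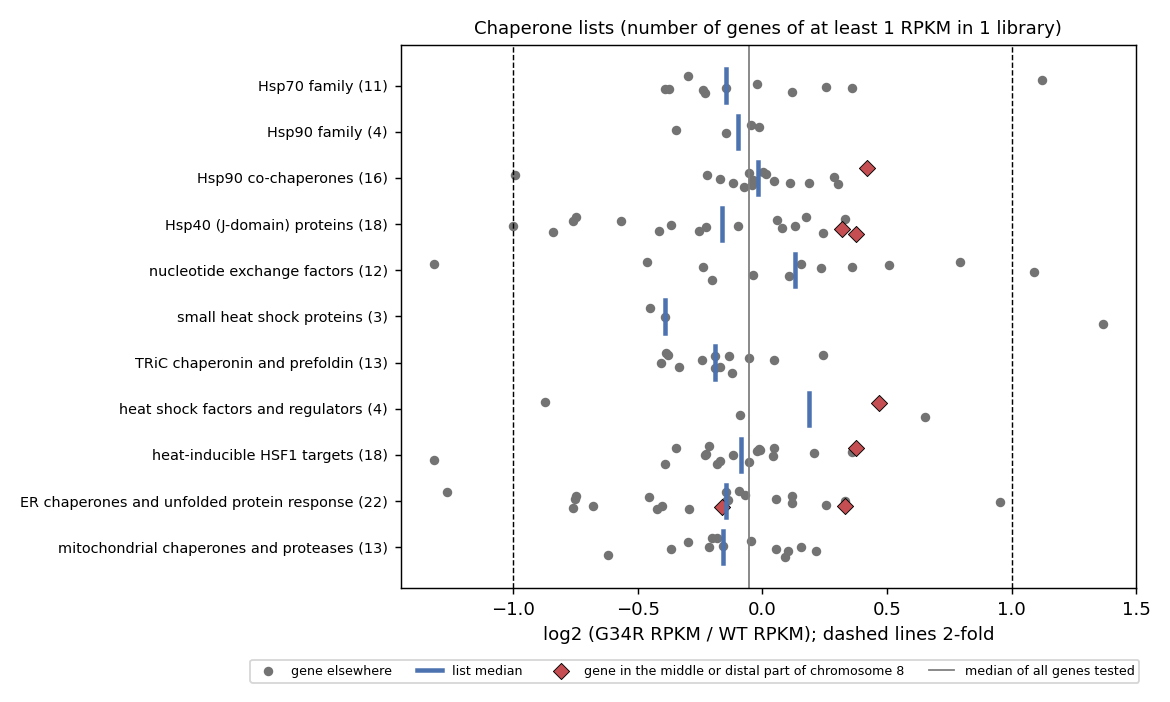
Log2 (G34R/WT RPKM) of the tested genes of 11 chaperone lists (points), with each list's median (blue bars) and the median of all tested genes (grey line). Genes of the middle and distal parts of chromosome 8 are red diamonds, and 5 of the 6 lie right of 0. A gene in several lists is drawn in each.

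No member lies on chromosome 8, but 8 listed genes do. In 3 equal parts of the chromosome, the median log2 ratio of tested genes was -0.09 in the proximal part (139 genes), 0.40 in the middle part (209 genes, 81.8% above 0) and 0.47 in the distal part (247 genes, 87.9% above 0). Dnajb1, whose value is given above, lies in the middle part, as do Fkbp8, an immunophilin (21.1 RPKM in the WT library and 28.3 RPKM in the G34R library), and Calr, the ER chaperone calreticulin (90.0 and 80.5 RPKM). In the distal part lie Dnaja2, Herpud1, an ER stress gene (3.92 and 4.93 RPKM), and Hsbp1, which encodes a small protein that binds HSF1 and restrains it (17.5 and 24.2 RPKM, log2 ratio 0.47). Hsf4, also there, stayed under 1 RPKM in both libraries. Bag4, an Hsp70 exchange factor in the proximal part, had 14.2 and 10.3 RPKM. The 6 tested listed genes of the middle and distal parts had a median log2 ratio of 0.35, with 5 above 0, and the 100 elsewhere had a median of -0.11. In the middle part the log2 ratios were 0.42 for Fkbp8, 0.38 for Dnajb1 and -0.16 for Calr, beside its median of 0.40. In the distal part they were 0.32 for Dnaja2, 0.33 for Herpud1 and 0.47 for Hsbp1. The median of the distal part equals the value of Hsbp1, so it is no separate yardstick for that gene. The part of chromosome position in these ratios was not tested.

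Of the remaining heat shock factors and regulators, Hsf2 had 10.8 RPKM in the WT library and 10.1 RPKM in the G34R library. Hsf2bp, a protein that binds HSF2, had 16.4 RPKM in the WT library and 8.97 RPKM in the G34R library. The single row whose name extends that of a member, Hspb11, had 0.82 RPKM in the WT library and 0.89 RPKM in the G34R library.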

How the data were processed

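The authors aligned 50-base single-end stranded reads from total RNA to mm9 with STAR 2.4.2a, imported primary alignments into Seqmonk, and deposited RPKM values per gene, with isoforms merged and transcript length corrected. RPKM is scaled to the total of its own library. Read counts were not analysed here.

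The log2 ratio of G34R to WT RPKM was computed with a floor of 0.01 RPKM, so that ratios of weak genes are less certain. Genes of at least 1 RPKM in 1 library were counted, past 2-fold and past 1.5-fold. Reads per gene were estimated from RPKM, GENCODE M1 exon length and the depth that the value steps of short (under 800 bases) single-exon genes gave. Intervals are exact binomial (95%) and cover counting error only. Depth limits the precision for Hspa1a and Hspa1b. Rows were matched to GENCODE M1 for 26023 of 26127 names and spans. The scripts were tested on simulated data.

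Named were the members, the 2 most abundant genes and the extreme ratios of each list, list genes on chromosome 8, those past 2-fold, and rows whose name extends that of a member, and Hspa1l, Hsf2, the genes that hold copies of members and the cell type markers shown were picked after their values were seen. The members and lists were chosen with earlier results of these data known. Pseudocounts, filters, scalings and the background were varied. The tools were pandas 2.3.3, SciPy 1.17.1 and NumPy 2.4.6 under Python 3.11.15, with figures drawn in matplotlib 3.10.9.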

Additional observations from a re-analysis of the deposited data

How the results depend on the processing

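No member passed 2-fold under any of the alternatives run. Adding 1 RPKM to each value took Hsf1 from past 1.5-fold to just inside it (log2 ratio 0.58, leaving 0 members past that limit), and it narrowed the shares of all tested genes past 2-fold to 1.83% higher and 3.32% lower, and past 1.5-fold to 6.89% and 9.09%. Without Hspd1 and Hspe1 the median log2 ratio of the members was -0.0205 (7 genes). The share of genes lower past 2-fold was 4.07% with a limit of 5 RPKM, 9.64% with 0.25 RPKM and 11.01% with no limit. The median of the Hsp40 list was 0 with a limit of 0.25 RPKM or none, and that of the Hsp70 family was -0.02 with none. That of the small heat shock proteins was -0.39 as counted and 0.49 with a limit of 5 RPKM. It was -0.17 with 0.25 RPKM, 0 with no limit and -0.23 with 1 RPKM added. The median of the heat shock factors and regulators was 0.19 as counted, 0.56 with a limit of 0.25 RPKM and 0.47 with none. Pdia3 passed 2-fold after centring, and Bag2 and Hspa12a were inside 2-fold with 1 RPKM added to each value. Of 370 values under 10 alternatives, 342 stayed within 1.5 times (counts and shares) or 0.1 (log2 ratios) of the value given, 28 moved further and 0 turned the sign of a ratio past 1.5-fold. With 1 library per line, leaving out a library leaves no comparison, and the depth limits Hspa1a and Hspa1b most. No paired analysis was possible because there is 1 library per line.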
